A study of Mus musculus with 2 samples.

Results

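Peroxisome genes were followed across the cell classes of mouse back skin and preputial gland (PG). The set held 39 genes chosen by symbol, of the 32285 genes listed for each tissue: 13 for import and biogenesis, 8 for the core of β-oxidation, 6 for auxiliary and α-oxidation steps, 7 for transport across the membrane, 4 carnitine transferases and thioesterases, and the antioxidant gene *Cat*. All 39 were found by symbol in both tissues. Both tissues came from the same 3 male wild type C57BL/6 mice, aged 52 weeks. Biopsies of back skin and samples of PG were each pooled over the mice and dissociated with a whole skin kit. Each pool gave 1 droplet-based single-cell RNA library. No treatment, transgene or second genotype was part of either group. The pooling leaves 1 library per tissue, so there is no replicate and no test below, and tissue and library cannot be told apart.

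Peroxisomes are small organelles bounded by 1 membrane. Their enzymes are made in the cytosol and imported by the peroxins, which the *Pex* genes encode. They shorten very-long-chain and branched fatty acids by β-oxidation, remove single carbons by α-oxidation, begin ether lipid synthesis, and break down hydrogen peroxide with catalase. Sebocytes (SEB) are the lipid-filled cells of the sebaceous gland (SG) of skin and of the PG, a modified sebaceous gland. They arise from a keratin-positive basal layer and finally burst to release sebum, and peroxisomes are known to be plentiful in them.

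Barcodes counted as cells when they reached 500 genes and 1000 UMIs (unique molecular identifiers, 1 per captured RNA molecule) and mitochondrial UMIs did not exceed 10%. This left 8899 skin cells with 27407186 UMIs and 4699 PG cells with 15270076 UMIs, with a median of 2386 and 2729 UMIs per cell. The libraries shared 0 cell barcodes. Cells were put into classes by their share of marker UMIs, and a SEB held at least 3 of 13 sebocyte markers and at least 3 marker UMIs per 1000. Cells past this gate that also held at least 2 hair follicle matrix marker UMIs per 1000 were left out of SEB. None of the 39 peroxisome genes was a marker. The gate found 1056 SEB in PG (pSEB) and 40 in skin (sSEB). A SEB was early when its UMIs for 4 basal keratin-layer genes exceeded those for 5 late lipid genes, and otherwise late, which gave 464 early and 592 late pSEB and 19 early and 21 late sSEB. Sebocyte markers summed to 11879 CPM (UMIs per 1000000 UMIs of the class) in pSEB and 11899 in sSEB, with 12 and 13 of 13 detected. Markers of another class moved with the tissue: suprabasal keratinocyte markers reached 6807 CPM in sSEB (8 of 8 detected), with 12520 in early and 2129 in late sSEB, against 192 CPM in pSEB. Fibroblast markers were at 72.1 CPM in sSEB and 80.7 in pSEB, while melanocyte markers were at 0 in sSEB and 0.97 CPM in pSEB. None of the 10 genes that most set early pSEB apart was a marker of SEB or of another class, so early pSEB are named here only as a range of the gate. Within 1 marker UMI per 1000 above the limit lay 180 pSEB and 17 sSEB.

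Levels are CPM of the UMIs summed over a class, with exact Poisson 95% intervals, and ratios of levels carry exact binomial 95% intervals. Both cover counting error only. The 3′ UMI counts are 1 per molecule and were not divided by gene length. A ratio was taken for genes with at least 20 UMIs over both groups, and a gene was counted as higher or lower past 2-fold.

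In PG the peroxisome genes together took 5049 CPM in pSEB (4987 to 5110), or 0.505% of all UMIs. Late pSEB were highest at 6063 CPM, early pSEB followed at 3292, and intermediate cells held 1898. Intermediate cells were past the basal keratinocyte limit, with at least 2 sebocyte marker UMIs per 1000, but did not pass the sebocyte gate. Basal keratinocytes held 1360 CPM (1320 to 1402), upper follicle and duct keratinocytes 1114 (1075 to 1154), and fibroblasts 930 (868 to 995). Contractile cells at 1119 CPM (799 to 1523) and endothelial cells at 872 (673 to 1111) overlapped those neighbours. Macrophages and dendritic cells held 795 CPM and T cells 637 (399 to 965). In skin the sum was 3933 CPM in sSEB (3649 to 4234), with 5610 in late and 1885 in early sSEB. The other skin classes lay between 636 CPM in skeletal muscle and 1070 CPM in T cells, with basal keratinocytes at 830 (812 to 848). Late SEB therefore carried the highest summed level of the classes given here in each tissue. A subset of late pSEB, the Awat2-high cells described below, was higher still at 9196 CPM.

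**Figure D1:**
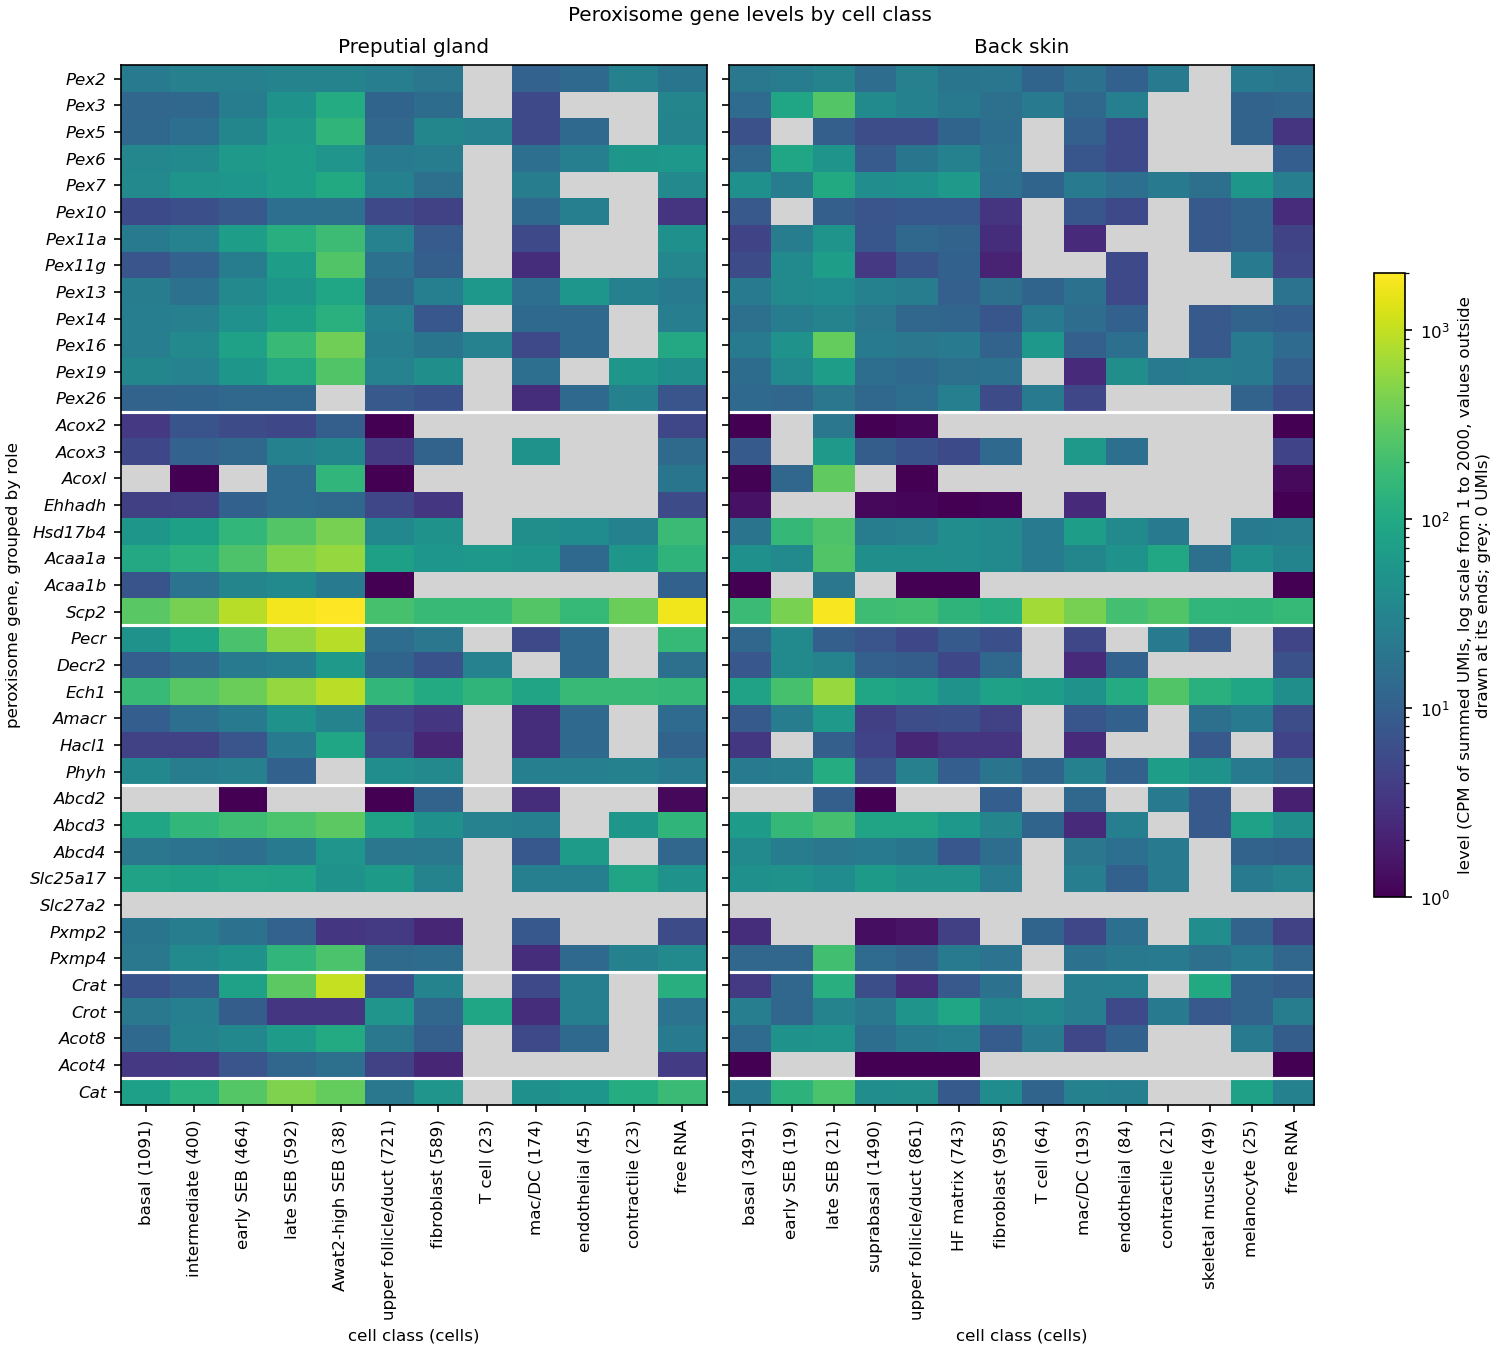
Level of each of the 39 peroxisome genes (CPM of summed UMIs, colour on a log scale, grey for 0 UMIs) in each cell class of PG (left) and back skin (right), with the number of cells in brackets and free RNA from barcodes of at most 100 UMIs in the last column. The late SEB columns sum to 6063 CPM in PG and 5610 CPM in skin, above every other full class, and *Scp2* is the brightest gene of both.

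Free RNA, taken from barcodes of at most 100 UMIs, carried 3502 CPM of peroxisome genes in PG and 623 CPM in skin. It thus held more of these transcripts in PG than any PG class outside SEB, and also more than early pSEB at 3292 CPM. Subtracting 2.23% free RNA, the largest share that the sebocyte markers *Awat2* and *Scd1* in PG fibroblasts allowed, left the comparison of pSEB with PG basal cells at a log2 ratio of 1.95 (1.89 without the subtraction). In skin *Awat2* was at only 0.35 CPM in free RNA and at 0 CPM in fibroblasts, which put the share at 0, and nothing was subtracted there. *Scd1* was at 111 CPM in free RNA of skin and 71.1 CPM in its fibroblasts, so the markers did not give the same share.

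A few genes made up most of the sum. *Scp2* (ENSMUSG00000028603), which encodes both a sterol carrier protein and a peroxisomal thiolase, gave 28.1% of the peroxisome UMIs of pSEB and 30.9% of those of sSEB. *Ech1*, a dienoyl-CoA isomerase, came next in both. With at least 1 UMI were 38 of the 39 genes in pSEB and 35 in sSEB, and 18 and 16 genes reached 50 CPM. The pSEB held far more UMIs in total than the sSEB, so these counts are not compared between the tissues. Shares over all genes were not taken for them. *Slc27a2*, a very-long-chain acyl-CoA synthetase, had 0 UMIs in both, which allows up to 0.58 CPM in pSEB and 16.6 CPM in sSEB. *Abcd2* had 1 UMI in each. *Ehhadh*, *Pxmp2* and *Acot4* had 0 UMIs in sSEB and 12.8, 13.2 and 10.5 CPM in pSEB, levels that lie below the 16.6 CPM that a count of 0 allows in sSEB.

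The first comparison asked which peroxisome genes were higher in pSEB than in basal keratinocytes of the same library. The summed level was higher by a log2 ratio of 1.89 (1.84 to 1.94), that is 3.71-fold. Of 37 genes with a ratio, 28 were at least 2-fold higher, against 8.45% of all 10645 genes, and 2 were at least 2-fold lower, against 15.2% of all genes. The median log2 ratio was 1.63 over the peroxisome genes and −0.12 over all genes. Without *Scp2* and *Ech1* the summed ratio was 1.78.

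The core of β-oxidation summed to 2109 CPM in pSEB and 464 CPM in PG basal cells, with 7 of 8 genes past 2-fold. *Scp2* was at 1418 against 289 CPM, a log2 ratio of 2.29 (2.19 to 2.39). The thiolase gene *Acaa1a* was at 386 against 98.8 CPM (1.97, 1.79 to 2.14). *Hsd17b4*, the D-bifunctional protein that hydrates and dehydrogenates the acyl chain, was at 219 against 56.2 CPM (1.96, 1.73 to 2.20). These 3 genes were thus all higher in pSEB. The log2 ratios of *Acaa1a* and *Hsd17b4* were similar, and the interval of *Scp2* lay above that of *Acaa1a*. The second thiolase gene *Acaa1b* was at 36.1 against 7.11 CPM, and since its copy *Acaa1a* is nearly identical, the split of reads between them is uncertain. The branched-chain oxidase *Acox3* was at 22.7 against 5.17 CPM, and the L-bifunctional enzyme *Ehhadh* at 12.8 against 4.20 CPM. *Acoxl*, an acyl-CoA oxidase-like gene (ENSMUSG00000027380), had 46 UMIs in pSEB and 0 in basal cells. Its log2 ratio is 3.20 when 3 UMIs are set over the basal cells, and its exact interval begins at 2.85. *Acox2*, which oxidizes bile acid intermediates and branched chains, was low in both at 5.43 and 3.55 CPM (0.61, −0.44 to 1.77).

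Of the auxiliary and α-oxidation genes 5 of 6 were past 2-fold higher and 1 was lower. *Pecr* (ENSMUSG00000026189), a trans-2-enoyl-CoA reductase that saturates a double bond next to the carboxyl end, was at 445 against 50.1 CPM (3.15, 2.92 to 3.40). *Ech1* was at 513 against 166 CPM (1.63, 1.49 to 1.77). *Amacr*, the racemase that makes branched chains fit for β-oxidation, was at 38.98 against 9.69 CPM. The dienoyl-CoA reductase *Decr2* was at 25.4 against 9.69 CPM, and *Hacl1*, the lyase that removes a carbon in α-oxidation, at 16.9 against 4.52 CPM. *Phyh* (ENSMUSG00000026664), which hydroxylates phytanoyl-CoA in the step before *Hacl1*, went the other way, at 16.7 against 34.6 CPM (−1.05, −1.48 to −0.63). The 2 named genes of α-oxidation therefore had opposite directions in this comparison.

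The import and biogenesis genes summed to 766 CPM in pSEB and 272 CPM in basal cells, and 10 of 13 were past 2-fold higher. *Pex16*, which with *Pex3* and *Pex19* inserts membrane proteins, was at 139 against 26.2 CPM (2.41, 2.07 to 2.76). *Pex11a* and *Pex11g*, which act in peroxisome elongation and division, were at 102 against 22.6 CPM (2.17, 1.81 to 2.56) and 52.9 against 7.43 CPM (2.83, 2.22 to 3.51). *Pex19* was at 83.4 against 32.6 CPM and *Pex3* at 39.6 against 12.3 CPM. *Pex5*, the receptor for most enzymes of the matrix, was at 49.2 against 12.9 CPM, and its docking partners *Pex14* and *Pex13* were at 64.8 against 25.5 and 48.7 against 24.2 CPM. *Pex6*, part of the ATPase that recycles the receptor, was at 66.9 against 33.3 CPM, a log2 ratio of 1.01, and *Pex13* also sat at 1.01, just past the limit. *Pex7*, the receptor for a smaller set of enzymes, was at 64.8 against 36.2 CPM (0.84, 0.53 to 1.16). Of the ubiquitin ligase genes *Pex10* was at 13.4 against 5.49 CPM and *Pex2* at 28.9 against 22.0 CPM, and *Pex26*, the anchor of the ATPase, was at 12.8 against 11.3 CPM. *Pex2*, *Pex7* and *Pex26* thus had the smallest ratios. The genes of elongation and membrane assembly did not stand apart from the rest, since *Pex5* (1.93) lay above *Pex3* (1.69) and *Pex19* (1.35).

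The membrane transporters differed least, with 2 of 5 genes past 2-fold. *Abcd3*, an importer of branched and long acyl-CoA, was at 215 against 91.1 CPM (1.24, 1.05 to 1.43), and *Pxmp4*, a membrane protein of little known function, at 113 against 20.7 CPM (2.45, 2.08 to 2.85). *Slc25a17*, a carrier of CoA and related cofactors, was at 80.9 against 79.8 CPM, a log2 ratio of 0.02 with an interval from −0.21 to 0.25. *Abcd4*, a family member known for cobalamin export from lysosomes, was at 20.8 against 20.4 CPM, and the channel *Pxmp2* at 13.2 against 19.4 CPM (−0.56, −1.08 to −0.03).

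Among the genes that release the shortened chains, *Crat* (ENSMUSG00000026853), which moves acetyl groups to carnitine, was at 214 against 6.78 CPM (4.98, 4.36 to 5.68). *Crot*, which does the same for medium chains, was at 5.62 against 21.0 CPM (−1.90, −2.58 to −1.25). The carnitine transferase pair thus had opposite directions. The thioesterase genes *Acot8* and *Acot4* were at 53.7 against 13.2 and 10.47 against 3.55 CPM. *Cat* (ENSMUSG00000027187), the catalase gene, was at 391 against 74.0 CPM (2.40, 2.20 to 2.61).

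**Figure D2:**
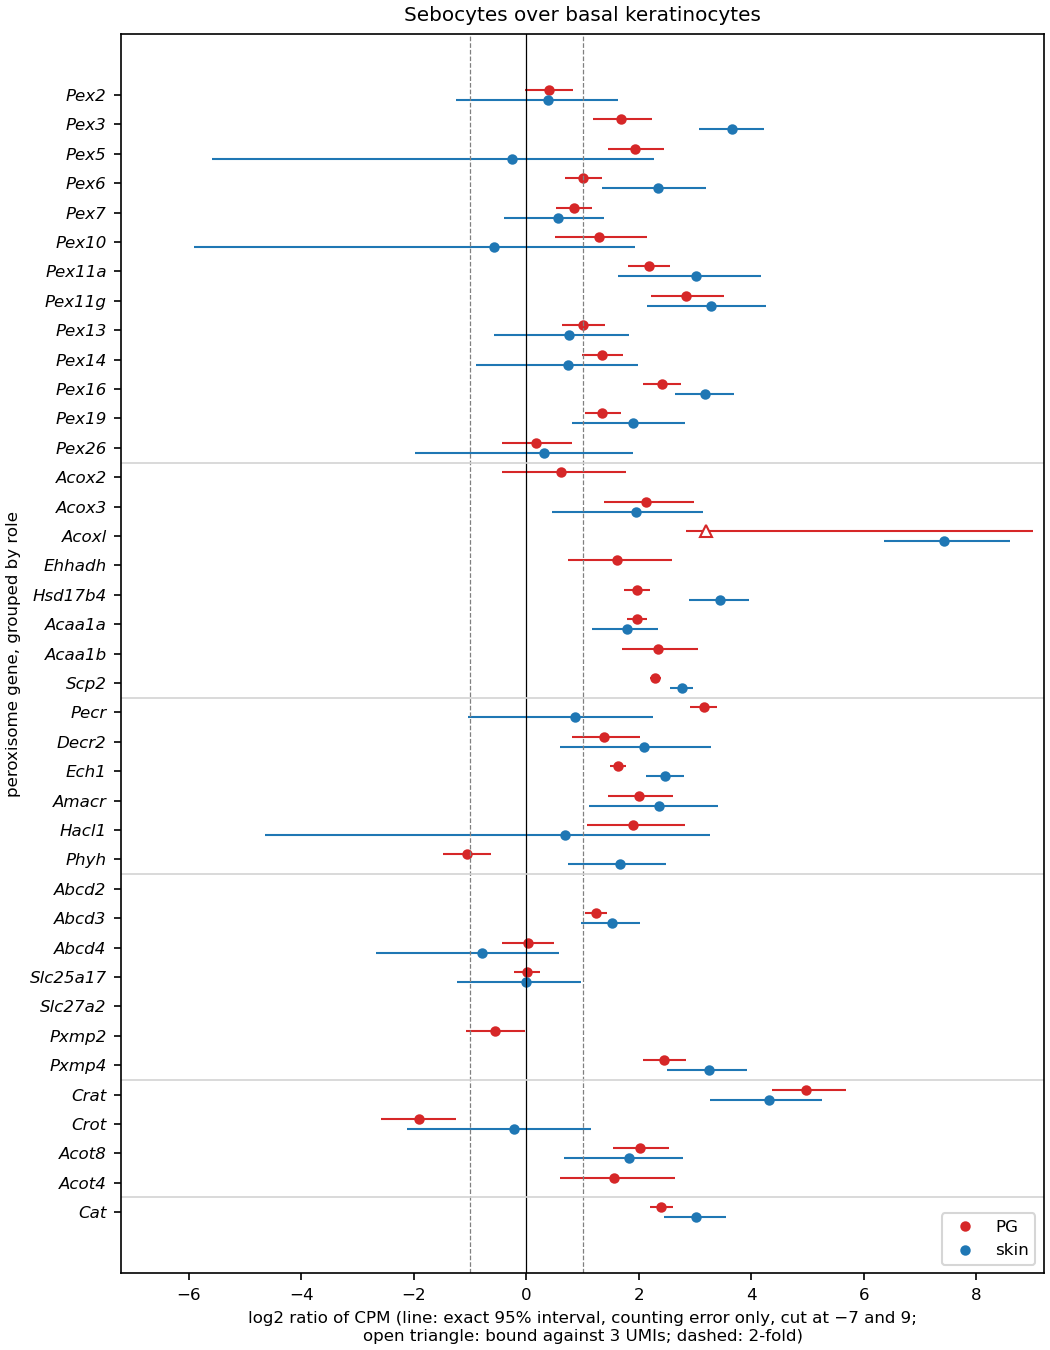
Log2 ratio of the level in SEB over that in basal keratinocytes of the same library for each peroxisome gene, in PG (red) and skin (blue), with exact 95% intervals for counting error, open triangles for bounds and dashed lines at 2-fold. Most PG points lie right of the upper dashed line, *Phyh* lies at −1.05 in PG and 1.67 in skin, and *Pecr* at 3.15 and 0.86.

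The summed level followed the marker gradient. When PG basal, intermediate and SEB cells were put in bins of 0, 1, 2, 4, 8 and 16 or more sebocyte marker UMIs per 1000, the summed level was 1184, 1556, 2015, 3314, 5607 and 8323 CPM. *Cat* went from 52.2 CPM in the lowest bin to 505 in the highest, *Pecr* from 34.4 to 845 and *Pex16* from 19.1 to 280 CPM. *Phyh* went from 38.1 CPM to 1.0 CPM. Of 47 *Acoxl* UMIs in these cells 45 were in the highest bin. In skin the sum went from 825 CPM in the lowest to 6989 CPM in the highest bin, but the upper 3 bins held 10, 3 and 11 cells.

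**Figure D3:**
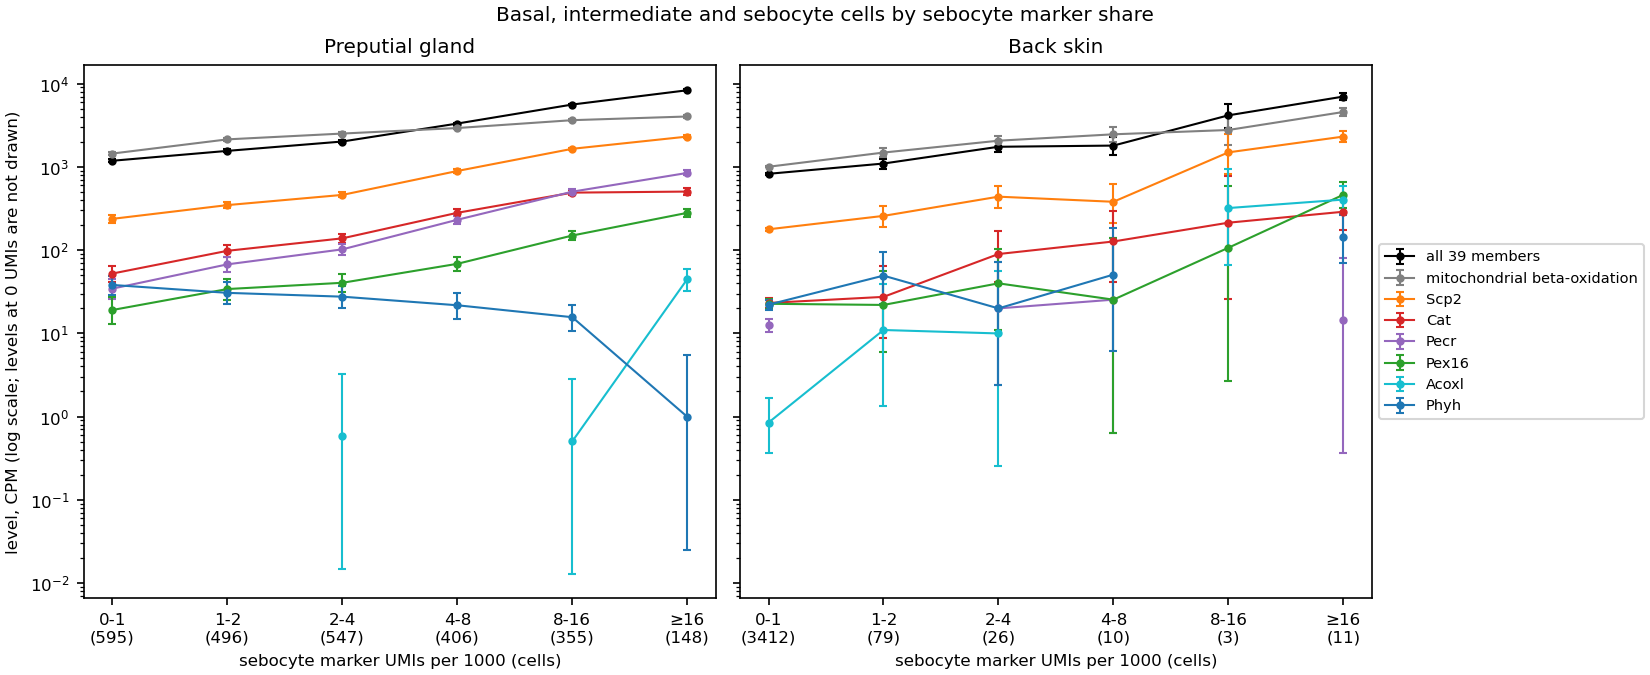
Level (CPM, log scale, with exact Poisson 95% intervals) of all peroxisome genes, of the mitochondrial β-oxidation list and of 6 genes against the share of sebocyte marker UMIs, in basal, intermediate and SEB cells of PG (left) and skin (right), with cells per bin in brackets. The peroxisome sum goes from 1184 to 8323 CPM in PG, while *Phyh* goes from 38.1 to 1.0 CPM.

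The second comparison set late against early pSEB. The summed level was higher in late pSEB by a log2 ratio of 0.88 (0.84 to 0.92). Of 37 genes 9 were at least 2-fold higher, against 3.44% of all genes, and 2 at least 2-fold lower, against 8.53%. The 9 were *Pex11g*, *Pex16*, *Acox3*, *Acoxl*, *Pecr*, *Amacr*, *Hacl1*, *Pxmp4* and *Crat*. *Acoxl* counts here only as a bound, since it had 46 UMIs in late and 0 in early pSEB. Its log2 ratio is 3.15 when 3 UMIs are set in early pSEB. Of its 46 UMIs 45 lay in the Awat2-high cells described below, and with stages split at the median keratin share its ratio was −1.69. *Crat* was at 293 CPM in late and 77.3 CPM in early pSEB (1.92, 1.67 to 2.18), *Pxmp4* at 150 against 49.8 CPM (1.59, 1.27 to 1.92) and *Pecr* at 570 against 229 CPM (1.32, 1.16 to 1.47). *Pex16* was at 174 against 77.9 CPM (1.16, 0.89 to 1.43). *Scp2* at 1727 against 882 CPM (0.97) and *Acaa1a* at 471 against 239 CPM (0.98) lay just under 2-fold, and *Cat* was at 459 against 272 CPM (0.75). *Phyh* was at 10.7 against 27.0 CPM (−1.34, −1.999 to −0.69) and *Crot* at 3.36 against 9.53 CPM (−1.50, −2.73 to −0.34). *Abcd3* (0.31) and *Slc25a17* (−0.09) differed little between the stages.

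This count moved with the split into stages and with other settings. Splitting pSEB at their median keratin share instead left the summed log2 ratio at 0.54, with 1 of 37 genes past 2-fold higher, against 1.32% of all genes. Doubling every marker limit left it at 0.47 with 4 of 36 genes, against 4.09%.

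Late pSEB held 38 cells with at least 1 UMI per 1000 of *Awat2*, the wax ester synthase of maturing SEB. This limit was set after the levels had been seen. These Awat2-high cells had a median of 9151.5 UMIs against 5173 in the other 554 late pSEB, and upper follicle and duct keratinocyte markers summed to 4890 CPM in them against 926 CPM in all late pSEB. The part of cell doublets in their levels was not tested in these cells alone. Skin had 0 such cells. Their summed peroxisome level was 9196 CPM against 5741 CPM in the other late pSEB, and 10 of 35 genes were past 2-fold higher, against 8.48% of all genes, with 1 lower, against 24.1%.

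*Acoxl* stood out in them at 148 CPM against 0.34 CPM (8.77, 6.22 to 14.11). Of the 46 *Acoxl* UMIs of pSEB 45 lay in these cells, spread over 14 of the 15 pSEB that had any. *Crat* was at 1013 against 219 CPM (2.21, 2.01 to 2.41), *Pex11g* at 256 against 49.9 CPM (2.36) and *Hacl1* at 88.6 against 15.5 CPM (2.51). *Pex19*, *Pex5*, *Pex3*, *Pex16*, *Decr2* and *Abcd4* were the other 6 genes past 2-fold, with log2 ratios from 1.34 to 1.59. *Cat* was lower than in the other late pSEB, at 331 against 473 CPM (−0.51, −0.82 to −0.22), and *Phyh* had 0 UMIs. *Pxmp2*, the gene counted as lower, rested on 1 UMI.

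**Figure D4:**
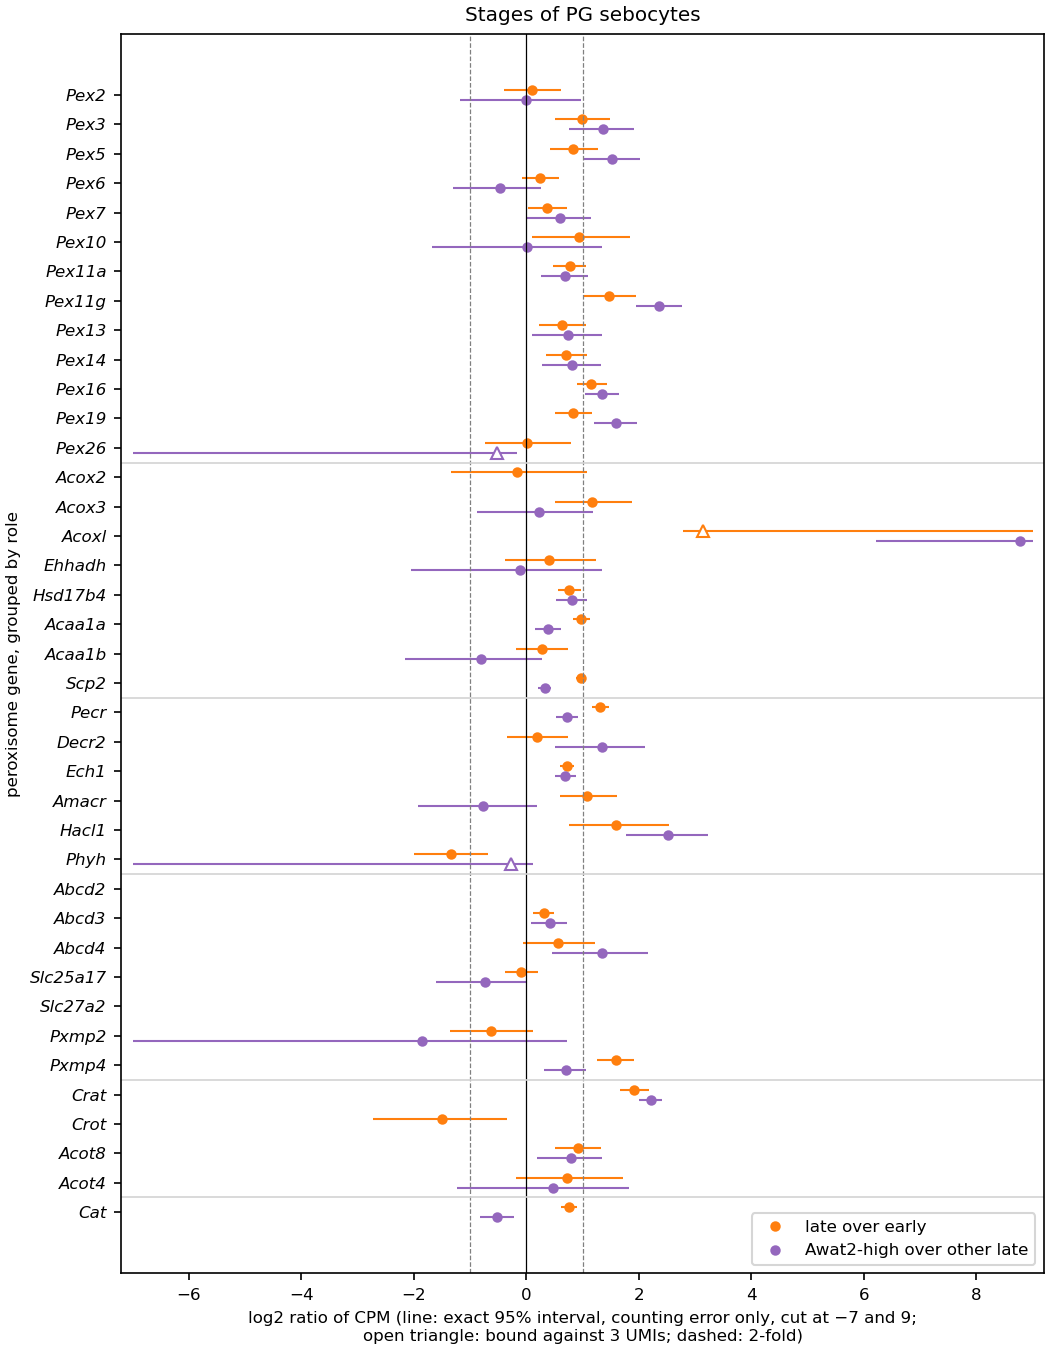
Log2 ratio of the level in late over early pSEB (orange) and in Awat2-high over the other late pSEB (purple) for each peroxisome gene, with exact 95% intervals for counting error, open triangles for bounds and dashed lines at 2-fold. *Crat*, *Pex11g* and *Hacl1* lie past 2-fold in both comparisons, *Acoxl* lies furthest right, and *Cat* lies at 0.75 in the first and −0.51 in the second.

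Promoter sequences were read for the genes that these comparisons turn on. RefSeq promoters of the GRCm38.p6 build were found for 31 of the 39 genes, in 36 windows, and not for *Pex2*, *Pex19*, *Hsd17b4*, *Abcd2*, *Abcd4*, *Amacr*, *Crat* and *Pxmp2*. A direct repeat of 2 copies of AGGTCA with 1 base between them, the form that PPAR and RXR receptors bind, was searched on both strands of the 250 bases before each start. With at most 1 mismatch it was in 0 of 36 windows, against 0.484% of all 32851 windows, and with at most 2 mismatches in 2 of 36 (5.56%, against 3.24% of all). Those were *Cat* and *Acot4*. The Cat stretch is on the minus strand at chr2:103485325-103485377, with the match 204 to 192 bases before the start, and the Acot4 stretch is on the plus strand at chr12:84038346-84038378, with the match on the opposite strand 13 to 1 bases before the start. Capitals mark the match.

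Cat: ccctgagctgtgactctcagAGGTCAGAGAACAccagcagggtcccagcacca

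Acot4: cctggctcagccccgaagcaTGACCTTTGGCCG

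The shorter words GGGCGG and CCAAT were in 22 of 36 (61.1%) and 17 of 36 (47.2%) windows, against 32.7% and 33.9% of all windows. The 80 bases before the start are shown for *Pecr* and *Acoxl*, the genes that differed most between the tissues, with GGGCGG in capitals. Pecr lies on the minus strand at chr1:72284322-72284401 and Acoxl on the plus strand at chr2:127854548-127854627.

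Pecr: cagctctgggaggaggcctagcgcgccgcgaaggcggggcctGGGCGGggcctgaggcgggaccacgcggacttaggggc

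Acoxl: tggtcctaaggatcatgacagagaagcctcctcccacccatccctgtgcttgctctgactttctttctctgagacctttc

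GGGCGG was in the Pecr stretch and in none of the 250 bases before the *Acoxl* start, and both promoters held CCAAT further upstream. A match is a run of letters and not a bound site.

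In skin the same contrast of SEB with basal keratinocytes gave a summed log2 ratio of 2.24 (2.13 to 2.36). Of 32 genes 20 were at least 2-fold higher, against 17.4% of all genes, and 0 were at least 2-fold lower, against 15.7%. The largest ratio was that of *Acoxl*, with 32 UMIs in 11 of 40 sSEB, at 178 against 1.04 CPM (7.42, 6.36 to 8.61). *Crat* was at 72.1 against 3.63 CPM (4.31, 3.27 to 5.27), *Pex3* at 183 against 14.4 CPM (3.67, 3.07 to 4.22) and *Hsd17b4* at 205 against 18.8 CPM (3.45, 2.90 to 3.97). *Pex11g* (3.28), *Pxmp4* (3.25), *Pex16* (3.18), *Pex11a* (3.02) and *Cat* (3.02, 2.45 to 3.55) were also past 8-fold, *Cat* with 189 against 23.2 CPM. *Scp2* was at 1215 against 179 CPM (2.76) and *Ech1* at 444 against 80.01 CPM (2.47). *Phyh* was higher in sSEB, at 72.1 against 22.6 CPM (1.67, 0.74 to 2.48). *Pecr* rested on 4 UMIs in sSEB, 22.2 against 12.2 CPM, with an interval that spans 0 (0.86, −1.04 to 2.25). *Slc25a17* was at 44.4 against 44.7 CPM (−0.01, −1.23 to 0.98).

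Many of these counts are small. With the ratio limited to genes for which at least 5 UMIs were expected in sSEB under equal levels, a rule added after the data had been seen, 4 of 7 genes were past 2-fold, against 8.9% of all genes.

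Within skin the 21 late sSEB held a higher sum than the 19 early sSEB, by a log2 ratio of 1.57 (1.31 to 1.84). Since genes could pass the limit of 20 UMIs through late sSEB alone, no count of genes is given here. The single ratios below carry the same limit: early sSEB held 1 UMI of *Pxmp4*, 3 of *Acaa1a* and 4 of *Pex16*. Of the 32 *Acoxl* UMIs 31 were in late sSEB. *Pxmp4* was at 202 against 12.3 CPM (4.03, 1.39 to 9.41), *Acaa1a* at 252 against 37.0 CPM (2.77), *Pex16* at 333 against 49.3 CPM (2.76, 1.26 to 4.71) and *Scp2* at 1856 against 431 CPM (2.11, 1.58 to 2.67). *Pex3* at 262 against 86.3 CPM and *Ech1* at 626 against 222 CPM were also higher in late sSEB. *Cat* was at 232 against 136 CPM (0.78, −0.32 to 1.96) and *Abcd3* at 212 against 160 CPM (0.40, −0.66 to 1.52), both with intervals that span 0. Suprabasal markers, given above, were lower in late than in early sSEB, and their part in this difference was not tested.

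The third comparison set pSEB against sSEB. The summed level was higher in pSEB by a log2 ratio of 0.36 (0.25 to 0.47), but its direction depended on the gate: with every marker limit doubled it was −0.054, and with Leiden clusters, of which only 1 with 13 cells held sSEB, it was −0.37. Without SEB past the suprabasal limit, a setting added after the data were seen, it was 0.33. Late against late SEB it was 0.11 (−0.01 to 0.24). Of 34 genes 10 were at least 2-fold higher in pSEB, against 16.9% of all genes, and 5 at least 2-fold lower, against 16.8%. The median log2 ratio was 0.10 over the peroxisome genes and 0.00 over all genes. Leaving abundant genes out of the total moved every log2 ratio up by 0.16, and the split was then 11 higher and 4 lower, with 20.7% and 13.7% of all genes. Single genes thus differed by more than the sum, in both directions. Genes could pass the limit of 20 UMIs through pSEB alone, as *Pex5*, *Pex10* and *Hacl1* did with 1 UMI each in sSEB. The counts past 2-fold are therefore not read as a result. Intervals lay above 0 for 7 of the 34 genes and below 0 for 5. These counts carry the same limit, and the share over all genes was not taken. They are not read as a result either. Late against late SEB 6 of 32 genes were higher, against 15.6% of all genes, and 4 lower, against 17.4%.

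*Pecr* had the largest ratio toward PG, at 445 CPM in pSEB and 22.2 CPM in sSEB (4.33, 2.97 to 6.20). Over 11 alternative settings its log2 ratio stayed between 3.75 and 5.61. In late SEB it was at 570 against 10.1 CPM. Of late pSEB 78.2% had a *Pecr* UMI, and 35.6% after each cell was thinned to 1000 UMIs, against 0% of the 21 late sSEB after thinning, where the exact interval reaches 16.1%. PG fibroblasts, in which free RNA and their own transcripts were not separated, were at 1.87% after thinning. *Pecr* was also higher in PG than in skin outside SEB, at 50.1 against 12.2 CPM in basal keratinocytes and 20.1 against 6.47 CPM in fibroblasts, and free RNA held 161 CPM of it in PG and 4.91 CPM in skin.

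*Crat* at 214 against 72.1 CPM (1.57, 0.79 to 2.48), *Pex11a* at 102 against 38.8 CPM (1.39, 0.34 to 2.72), *Acaa1a* at 386 against 155 CPM (1.31, 0.78 to 1.91) and *Cat* at 391 against 189 CPM (1.05, 0.56 to 1.59) were also past 2-fold toward PG. Over 11 settings these genes kept their direction but not the 2-fold size. Their lowest log2 ratios were 0.53 for *Crat*, 0.63 for *Pex11a*, 0.39 for *Acaa1a* and 0.47 for *Cat*. *Pex5* was at 49.2 CPM against 1 UMI in sSEB (3.15, 0.66 to 8.46). *Pex14* (1.22, −0.01 to 2.86), *Pex10*, *Acaa1b* and *Hacl1* were past 2-fold with intervals that span 0, on 1 or 2 UMIs of the last 3 genes in sSEB. *Cat* was also higher in the basal keratinocyte class of PG than in that of skin, at 74.0 against 23.2 CPM. These classes differed in markers. Basal keratinocyte markers summed to 6041 CPM in the PG class and 21975 CPM in the skin class. Sebocyte markers summed to 951 CPM in the PG class and 125 CPM in the skin class.

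*Acoxl* had the largest ratio toward skin, at 8.92 CPM in pSEB and 178 CPM in sSEB (−4.31, −5.00 to −3.62), and stayed between −6.30 and −4.12 over 11 settings. After thinning 23.8% of late sSEB had an *Acoxl* UMI (8.22% to 47.2%) and 0.338% of late pSEB, with 0% of fibroblasts in either tissue. In the 38 Awat2-high pSEB it was at 148 CPM, and in late sSEB at 313 CPM. *Pex3* was at 39.6 against 183 CPM (−2.21, −2.75 to −1.63) and *Phyh* at 16.7 against 72.1 CPM (−2.11, −2.96 to −1.15). *Crot* (−1.98, −3.49 to −0.01), on 4 UMIs in sSEB, and *Acox2* (−1.03, −3.02 to 2.08), on 2, were the other genes past 2-fold toward skin. *Pex3* and *Phyh* kept their direction in every setting tried, with *Pex3* between −2.93 and −1.92 and *Phyh* between −3.43 and −1.52.

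The other genes with a ratio were within 2-fold in either direction. *Scp2* was at 1418 against 1215 CPM (0.22, 0.03 to 0.42), *Ech1* at 513 against 444 CPM (0.21, −0.11 to 0.55), *Hsd17b4* at 219 against 205 CPM (0.09, −0.38 to 0.61) and *Abcd3* at 215 against 189 CPM (0.19, −0.30 to 0.72). The direction of *Scp2* depended on the setting, with log2 ratios from −0.61 to 0.39 over 11 settings. Late against late SEB it was at −0.10 (−0.32 to 0.12). *Pxmp4* was at 113 against 117 CPM (−0.04, −0.67 to 0.66), and *Pex16* at 139 against 205 CPM (−0.57, −1.04 to −0.05). *Pex6*, *Pex7*, *Pex11g* and *Acot8* had log2 ratios from −0.07 to 0.11, with intervals that together span −0.97 to 1.25. *Pex19* (0.59, −0.31 to 1.66) and *Slc25a17* (0.87, −0.13 to 2.09) were nearer to 2-fold, and their intervals span 0. *Pex2*, *Pex13*, *Pex26*, *Acox3*, *Decr2*, *Amacr* and *Abcd4* had 3 to 8 UMIs in sSEB, at 16.6 to 44.4 CPM there and 12.8 to 48.7 CPM in pSEB, with log2 ratios from −0.55 to 0.33 and wide intervals, such as −1.20 to 1.70 for *Pex2* and −1.99 to 1.94 for *Pex26*.

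**Figure D5:**
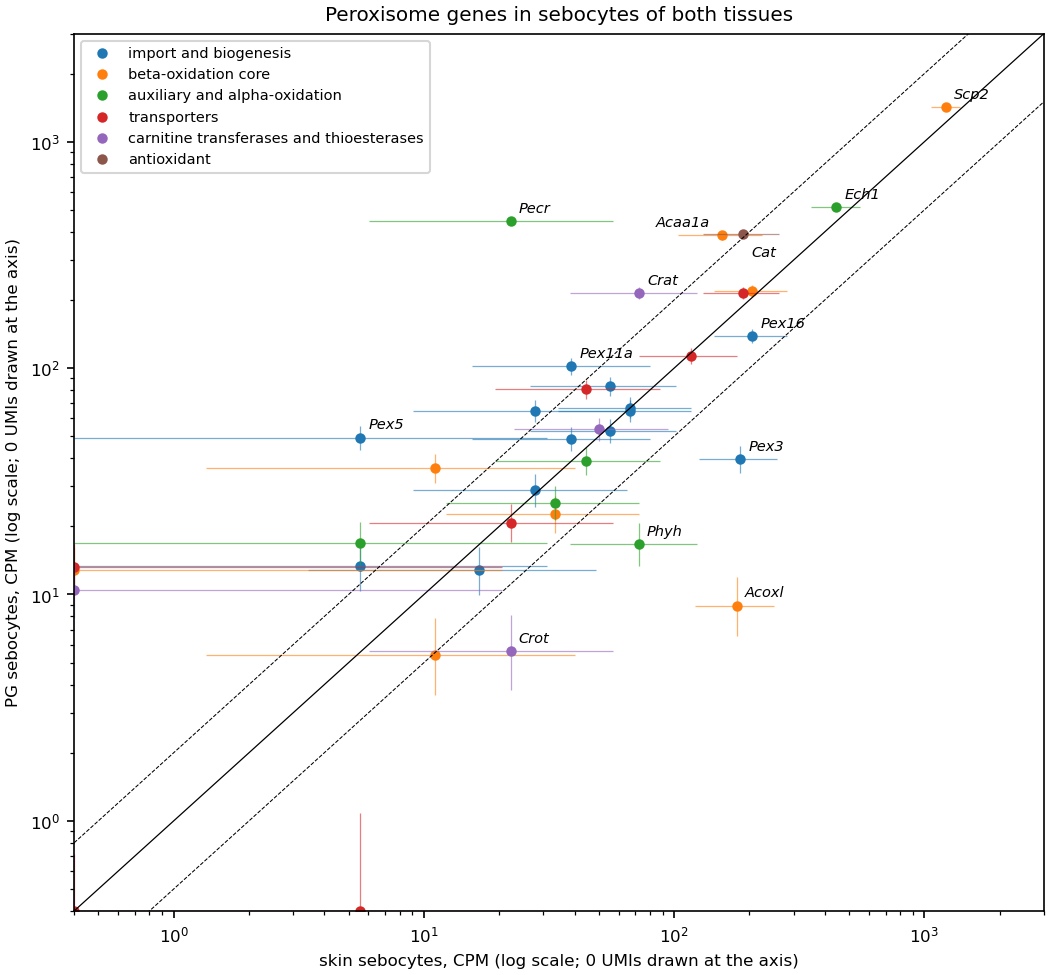
Level of each peroxisome gene in sSEB (x axis) and pSEB (y axis), both in CPM on a log scale with exact Poisson 95% intervals, coloured by role, with the line of equal levels and dashed lines at 2-fold. *Pecr* lies far above the lines at 445 against 22.2 CPM, *Acoxl*, *Pex3* and *Phyh* lie below them, and *Scp2* and *Ech1* lie near equality.

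Basal keratinocytes of PG held a higher peroxisome sum than those of skin, 1360 against 830 CPM (0.71, 0.66 to 0.77), with 11 of 34 genes past 2-fold higher against 15.8% of all genes and 0 lower against 18.3%. Fibroblasts held 930 against 682 CPM (0.45, 0.32 to 0.57), with 3 of 26 genes higher against 9.66% and 1 lower against 9.1%. The free RNA of PG, given above, was richer in these transcripts than that of skin, and its part in these differences was not tested. The basal keratinocyte classes also differed in sebocyte markers, as given above. In the lowest bin of sebocyte markers the sum was 1184 CPM in 595 PG cells and 825 CPM in 3412 skin cells. The next bin held 496 PG cells at 1556 CPM and 79 skin cells at 1096 CPM. The part of this marker difference in the basal keratinocyte sums was not tested.

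The number of peroxisome genes seen per cell followed the same order. After thinning to 1000 UMIs the mean was 4.04 of 39 genes in late pSEB, 2.48 in early pSEB, 1.25 in PG basal keratinocytes and 0.85 in PG fibroblasts. In skin it was 3.19 in late sSEB, 1.37 in early sSEB, 0.81 in basal keratinocytes and 0.64 in fibroblasts. *Cat* had a UMI in 35.6% of late pSEB (79.1% before thinning), 7.33% of PG basal keratinocytes and 4.75% of PG fibroblasts.

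The list of other peroxisomal genes held 44. In pSEB 15 of 34 with a ratio were past 2-fold higher than in PG basal cells and 1 was lower, against 8.45% and 15.2% of all genes. Between late and early pSEB 7 of 33 were higher and 0 lower, against 3.44% and 8.53%. In sSEB 11 of 28 were higher than in skin basal cells and 2 lower, against 17.4% and 15.7%. Between the tissues 10 of 32 were higher in pSEB and 4 lower, against 16.9% and 16.8%, counts with the same limit of depth as those of the peroxisome genes. *Agps*, which makes the ether bond, was at 821 CPM in pSEB and at 0 UMIs in sSEB, a log2 ratio of 5.62 when 3 UMIs are set in sSEB. *Far1* and *Far2* encode the reductases that make fatty alcohols for ether lipids and waxes. *Far1* was at 245 CPM in pSEB and 11.1 CPM in sSEB (4.46, 2.61 to 7.51), and *Far2* at 0.19 CPM in pSEB and 239 CPM in sSEB (−10.26, −15.60 to −7.71). Both were detected in both tissues, *Far1* with 2 UMIs in sSEB and *Far2* with 1 UMI in pSEB, and their summed levels had opposite directions. Most *Far1* UMIs of pSEB lay in the few Awat2-high cells, at the level given below, and skin had no such cells. The *Far1* ratio between the tissues therefore rests largely on those cells and was not taken without them.

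*Ephx2*, an epoxide hydrolase, and the thioesterase gene *Acot5* were at 356 and 225 CPM in pSEB and at 0 UMIs in sSEB. Their log2 ratios were 4.42 and 3.75 with 3 UMIs set in sSEB. *Acot5* has near-identical neighbours, *Acot4* among them, so its count is uncertain. *Pmvk*, of the mevalonate pathway, was at 49.3 CPM in pSEB and 877 CPM in sSEB (−4.15, −4.45 to −3.86), and the isomerase gene *Eci2* at 31.4 against 183 CPM (−2.54). *Prdx5*, a peroxiredoxin, was at 328 against 344 CPM, *Idh1*, an isocitrate dehydrogenase that gives NADPH, at 262 against 216 CPM, and *Fis1*, a fission factor, at 224 against 166 CPM. In the Awat2-high pSEB *Agps* was at 3680 CPM and *Far1* at 3762 CPM.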

How the data were processed

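Deposited were 2 matrices of UMI counts, genes by barcodes, 1 per tissue. The authors made these counts with Cell Ranger (version 4 in the file header) on mm10, per the submitters' processing notes, with no normalization, and the deposited files hold unfiltered barcodes. Counting settings beyond this are not given in the sources used here. The 39 peroxisome genes, the other gene lists and the comparisons were chosen with earlier results of these data known, and the marker limits were set after marker levels were seen.

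Cells were filtered as stated above, which removed 232 skin and 662 PG barcodes for mitochondrial UMIs alone. Classes came from 14 marker lists with limits of 2 to 20 UMIs per 1000. Cells past the limits of 2 lineages were left out as mixed, as were cells past both the sebocyte and the hair follicle matrix limit. Together these were 247 cells in skin and 166 in PG, and no other doublets were removed. UMIs were summed per class with numpy 2.4.6, pandas 2.3.3 and scipy 1.17.1 (Python 3.11.15). Genes given in full were the 21 with at least 50 CPM in SEB of either tissue, and from the other lists at most 10 genes with at least 100 CPM. Depth limits sSEB most: 180262 UMIs, where 3 UMIs are 16.6 CPM, against 5156920 in pSEB, where 3 UMIs are 0.58 CPM. The code was tested on simulated data. Other settings tried numbered 12 chosen at the outset and 3 added after the data were seen, with clusters and doublet ranks from scanpy 1.11.5 and leidenalg 0.10.2.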

Additional observations from a re-analysis of the deposited data

Results flagged for a closer look

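*Phyh*, the hydroxylase of phytanoyl-CoA, had opposite directions in the tissues under the same contrast. The log2 ratio of SEB over basal keratinocytes was −1.05 in PG (−1.48 to −0.63, 86 UMIs in pSEB) and 1.67 in skin (0.74 to 2.48, 13 UMIs in sSEB). With 1 library per tissue the difference between these ratios was not tested. The basal keratinocyte classes also differed in marker levels between the tissues, as given above. Over 11 alternative settings the PG ratio stayed between −1.64 and −0.83 and the skin ratio between 1.23 and 2.57.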

How the results depend on the processing

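No paired analysis was possible because each tissue has 1 pooled library, which leaves no pairs. The summed log2 ratio of pSEB over PG basal cells (1.89) was 1.75 with at most 5% mitochondrial UMIs, 2.14 with doubled marker limits, 2.05 with Leiden clusters, 1.73 with cells weighted equally, 1.95 after free RNA subtraction (which removed nothing in skin and so bears on PG only) and 2.01 with a sebocyte limit of 4 per 1000. That of late over early pSEB (0.88) was 0.78, 0.47 and 0.98 under the first 3 of these, 0.54 with the median keratin split and 0.69 with the limit of 4. That of pSEB over sSEB (0.36) turned to −0.054 with doubled limits and −0.37 with Leiden clusters, and was 0.52 without abundant genes in the total and 0.089 with the limit of 4. That of sSEB over skin basal cells (2.24) was 2.90, 2.96, 1.97 and 2.63 with doubled limits, Leiden clusters, equal weights and the limit of 4.

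Counts of genes past 2-fold higher in late pSEB (9) were 5 of 35 with at most 5% mitochondrial UMIs (2.91% of all genes), 4 of 36 with doubled limits (4.09%), 15 of 37 with Leiden clusters (4.54%), 23 of 37 past 1.5-fold (9.04%) and 1 of 37 with the median split (1.32%), against 3.44% of all genes beside the 9. Counts higher in pSEB than sSEB (10, against 16.9%) were 6 of 34 (16%), 5 of 33 (15.3%) and 4 of 32 (15.7%) under the first 3, shares near or below those of all genes. With at least 5 expected UMIs 4 of 7 genes were higher in sSEB than basal cells (20 before), against 8.9%. Of 943 values of single genes 837 moved by less than their interval and 105 moved further. Only 1 was a change of direction of a gene past 2-fold: *Acoxl* in late over early pSEB was −1.69 with the median split. Changes of direction of genes within 2-fold were not counted apart. Among them, pSEB over sSEB reached −0.61 for *Scp2* (0.22), −0.53 for *Ech1* (0.21) and −0.36 for *Hsd17b4* (0.09). The cause of these shifts was not tested. Scrublet called 2 skin and 0 PG cells, too few to have worked, so the 634 (7.12%) and 177 (3.77%) cells it ranked highest were left out instead. Leaving out sebocytes past the suprabasal limit, the sebocyte limit of 4 and the rule on expected UMIs were chosen after seeing the data. The depth of the 40 sSEB limits every value that uses sSEB.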

Other observations

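Mitochondrial β-oxidation, the parallel pathway for shorter chains, differed less along the PG series. Of its 17 genes 16 had a ratio between pSEB and PG basal cells, and 7 were past 2-fold higher, against 8.45% of all genes, with a summed log2 ratio of 0.93 (0.88 to 0.97). Between late and early pSEB 0 of 16 were past 2-fold, against 3.44% higher and 8.53% lower of all genes, and the sum differed by 0.34, against 0.88 for the peroxisome genes. In skin 13 of 17 were past 2-fold higher in sSEB than in basal cells, against 17.4% of all genes, with a summed log2 ratio of 1.62 (1.49 to 1.74).

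Between the tissues 5 of 17 mitochondrial genes were past 2-fold higher and 2 lower in pSEB, against 16.9% and 16.8% of all genes, while the sum was 3376 against 3107 CPM. These counts carry the same limit of depth as those of the peroxisome genes. The 2 lower genes were acyl-CoA dehydrogenases. *Acadl*, for long chains, was at 0.78 CPM in pSEB and 255 CPM in sSEB (−8.36, −10.30 to −6.91), and was also lower in PG basal keratinocytes than in those of skin, at 2.26 against 54.3 CPM. *Acadm*, for medium chains, was at 36.5 against 288 CPM (−2.98, −3.43 to −2.51). Of 6 regulators, *Pparg* among them as a marker used in the gate, 0 reached 100 CPM in SEB of either tissue.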
